A study of Mus musculus with 21 samples.

Results

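The 36 genes described here encode enzymes, membrane proteins and other resident proteins of the lysosome. They were picked by gene symbol from a list of lysosomal genes, and all 36 were found in the deposited gene count table of 24421 symbols. All 36 were also among the 12786 genes that passed the filter on low counts and were tested. RNA-seq was performed on bone marrow-derived B cell precursors grown with IL-7, the cytokine that sustains early B cells, and transduced with 1 of 3 MIGR1 retroviral vectors. The vectors were empty (EV), carried human BCR-ABL1 p210, the fusion kinase of Philadelphia chromosome-positive leukemia, or carried mouse C-MYC, a transcription factor that drives growth and proliferation. All cells, the EV control included, came from 53BP1-/- C57BL/6 mice and therefore lack a DNA damage response protein, and they were harvested 7 to 9 days after transduction. Each condition had 2 libraries, 6 in all, from duplicate experiments, and nothing in the labels ties the replicate numbers to an animal. Dead cells were removed, and a sort for a B cell marker is not described for these libraries, so each can hold other bone marrow cells.

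Library totals lay between 20687092 and 24095955 counts. Myc was at 181 and 137 CPM with EV, 343 and 348 with BCR-ABL1 and 1743 and 1233 with C-MYC, with the vector's copy and the endogenous gene counted together. Trp53bp1, which encodes 53BP1, was at 16.97 and 30.2 CPM with EV, 22 and 21.4 with BCR-ABL1 and 15.7 and 18.3 with C-MYC, and because the labels do not say which exons the null allele lacks, these reads do not check the genotype. The fusion transcript has no row of its own in the table.

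Lysosomes break down proteins, glycans and lipids at acid pH. A proton pump, the V-ATPase, acidifies their lumen, most of their soluble hydrolases are delivered by a mannose 6-phosphate tag, and heavily glycosylated proteins such as LAMP1 and LAMP2 line their membrane. Transcription of many lysosomal genes is driven by the MiT/TFE factors TFEB, TFE3 and MITF, which bind E-boxes in the promoters of these genes, and MYC with its partner MAX recognizes the same E-box letters. Macrophages are rich in lysosomes, whereas B cell precursors hold fewer, and a bulk library sums over all cells present.

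The E-box CACGTG was searched on both strands in promoters of RefSeq (GRCm38.p6), each spanning 250 bases before and 50 bases after an annotated start. Of the 36 genes, 32 had a promoter entry. Windows from 3 of these promoters are shown because they hold the motif shared by the MiT/TFE factors and MYC in a gene called lower with C-MYC (Lamp1), a gene called higher (Gaa) and a gene not called (Glb1). All lie upstream of the start, outside annotated exons and on the plus strand, and capitals mark CACGTG. The Lamp1 window (chr8:13159076-13159160, 85 to 1 bases before the start) holds 4 copies. The Glb1 window (chr9:114401006-114401059) and the Gaa window (chr11:119267799-119267852) hold 1 copy each.
Lamp1: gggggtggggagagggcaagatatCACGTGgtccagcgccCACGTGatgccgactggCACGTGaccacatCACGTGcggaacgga
Glb1: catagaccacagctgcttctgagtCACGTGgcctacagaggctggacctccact
Gaa: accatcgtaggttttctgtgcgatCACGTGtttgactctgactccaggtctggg

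Relative to EV, most lysosomal genes that differed were lower with either oncogene. With BCR-ABL1, 8 of the 36 genes were lower and 1 was higher (edgeR quasi-likelihood test, Benjamini-Hochberg adjusted p below 0.05), where 12% of all genes tested were called lower and 5.08% higher. The 8 were the tetraspanin gene Cd63, the protease genes Ctsa and Ctsl, the glycosidase genes Hexa and Man2b1, the sulfatase gene Sgsh, the saposin precursor gene Psap and the progranulin gene Grn, and the 1 higher gene was the sulfatase gene Arsb. With C-MYC, 15 were lower and 3 were higher, where 24.5% of all genes were called lower and 18.6% higher. Between the oncogenes, BCR-ABL1 libraries were higher than C-MYC libraries for 8 of the genes and lower for 5, against 11.9% and 11.5% of all genes. The median log2 fold change of the 36 was -0.31 with BCR-ABL1 and -0.33 with C-MYC, while the medians over all genes tested were 0.001 and -0.076. In these bulk cultures, fewer cells of a type and less RNA per cell cannot be told apart.

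The comparisons with EV share the EV libraries. Lower calls in both were made for 6 genes, Ctsa, Hexa, Man2b1, Sgsh, Psap and Grn, and opposite calls for 1, Ctsl. A further 9 were called lower with C-MYC and not with BCR-ABL1, and of these all but Lamp1 and Mcoln1 also differed between the oncogenes in the direct test below. Cd63 was called lower with BCR-ABL1 and not with C-MYC, and in the direct test it was lower with BCR-ABL1 too. No call was made in any comparison for 16 genes. With the replicate number added to the model as a block, 9 of these 16 were called lower in a comparison (Scarb2, Npc1, Ctsb, Ctsc, Ctsd, Ctsz, Neu1, Naglu and Arsa), and the lower calls went from 8 to 16 with BCR-ABL1 and from 5 to 8 between the oncogenes. Lower calls over all genes went from 1530 to 2003 with BCR-ABL1 and from 1468 to 2110 between the oncogenes. Whether the replicate numbers mark shared experiments is not given in the labels.

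The counts depended on single libraries, and so did those of all genes. The lysosomal share of lower calls with BCR-ABL1 stayed above that of all genes without BCR-ABL1 replicate 2 but not without BCR-ABL1 replicate 1. Without BCR-ABL1 replicate 1, only Grn remained called lower with BCR-ABL1, without BCR-ABL1 replicate 2 the number was 3 (Ctsl, Hexa and Grn), and the rise of Arsb was lost without either of them and without EV replicate 2. For C-MYC, the 15 lower calls became 9 without C-MYC replicate 1, and the 3 higher calls became 0 without C-MYC replicate 2 and 2 without EV replicate 1 or C-MYC replicate 1. Values tested by limma on log2(FPKM + 1) gave 5 lower calls and 0 higher calls with BCR-ABL1, and 17 and 1 with C-MYC.

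**Figure D1:**
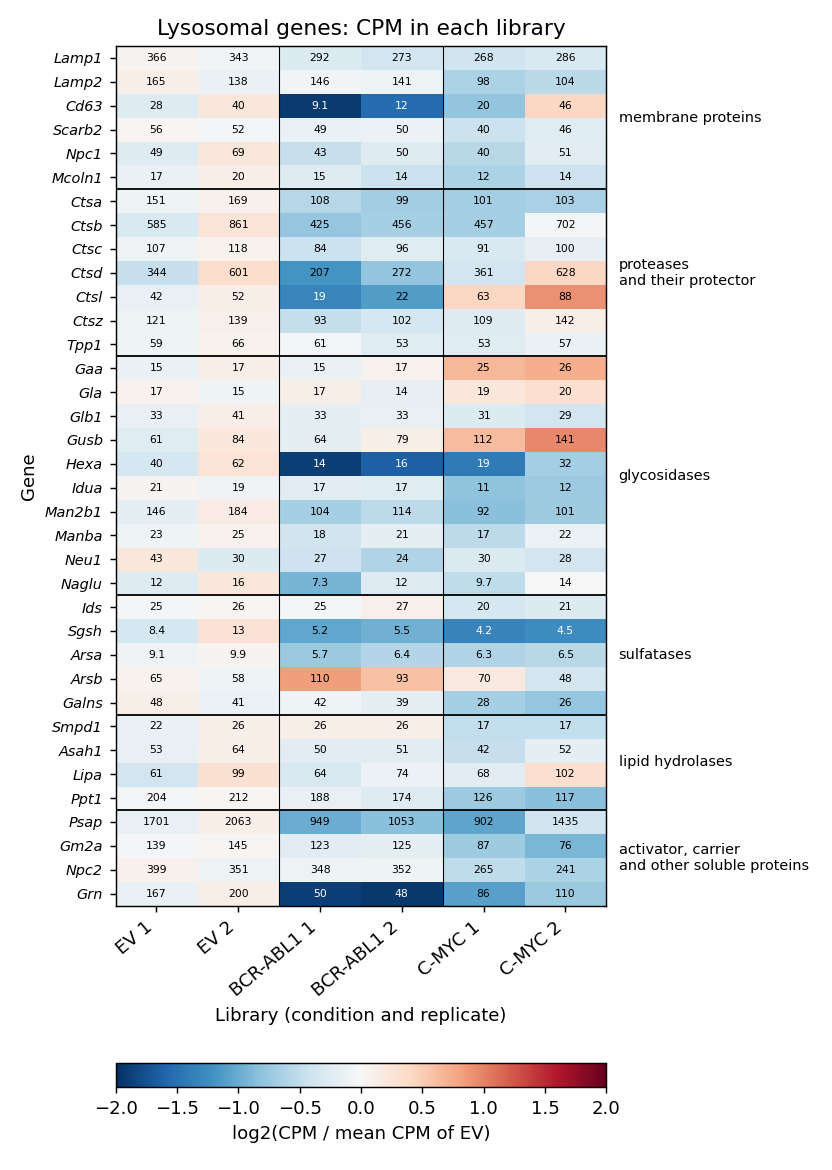
Level of each of the 36 lysosomal genes in each of the 6 libraries. Numbers in the cells are TMM-normalized CPM, rows are genes grouped by role, columns are libraries, and color gives log2 of the CPM over the EV mean. The BCR-ABL1 columns are bluest at Cd63, Hexa and Grn, and the C-MYC columns are red at Ctsl, Gaa and Gusb.

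Levels below are given as TMM-normalized CPM (counts scaled to a common library size) for replicate 1 and then replicate 2, and fold changes are log2 values from edgeR with their SE (n = 2 libraries per condition). Among the 6 membrane proteins, 1 was lower with BCR-ABL1, 3 were lower with C-MYC and 0 were higher with either. Of all genes tested, 12% and 24.5% were called lower, and each role described below holds few genes. Cd63, a tetraspanin of late endosomes and lysosomes that is also found on the granules of mast cells and basophils, had 28.5 and 39.7 CPM with EV, 9.05 and 11.8 with BCR-ABL1 and 19.8 and 45.6 with C-MYC. Both BCR-ABL1 libraries lay below every other library, and the C-MYC libraries lay on either side of the EV range. Its log2 fold change with BCR-ABL1 was -1.71 ± 0.38 (SE, edgeR adjusted p = 0.0199), a 3.27-fold lower level, and it was -0.06 with C-MYC (edgeR adjusted p = 0.907).

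Lamp1 and Lamp2 encode the main glycoproteins of the lysosomal membrane. Lamp1 was at 366 and 343 CPM with EV, 292 and 273 with BCR-ABL1 and 268 and 286 with C-MYC, and all oncogene libraries lay below both EV libraries, although only C-MYC passed the test (-0.35 ± 0.10 SE, edgeR adjusted p = 0.0228), a call kept without EV replicate 2 but lost when any other library was left out. For BCR-ABL1 the value was -0.33 ± 0.10 (SE, edgeR adjusted p = 0.061). Lamp2, whose product also serves as a receptor for chaperone-mediated autophagy, was at 165 and 138 CPM with EV, 146 and 141 with BCR-ABL1 and 98.2 and 104 with C-MYC. Its BCR-ABL1 values lay within the EV range and its C-MYC values below it.

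Mcoln1, a cation channel that releases lysosomal calcium, was at 16.7 and 20.1 CPM with EV, 15.4 and 13.6 with BCR-ABL1 and 11.8 and 13.8 with C-MYC. Its fall with C-MYC passed the threshold by little (edgeR adjusted p = 0.0487). The call was lost with DESeq2, with the size factors of DESeq2, without the filter on low counts and with only the 4 libraries compared. It was kept without EV replicate 1 but lost when any other library was left out. Scarb2, the carrier of glucocerebrosidase to the lysosome, and Npc1, which exports cholesterol, were not called, with log2 fold changes between -0.37 and -0.12 against EV.

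Of the 7 genes for proteases and their protector, Ctsl went in opposite directions under the oncogenes. Ctsl, which encodes the endoprotease cathepsin L, was at 42.3 and 51.6 CPM with EV, 18.8 and 21.7 with BCR-ABL1 and 62.7 and 88.5 with C-MYC. The conditions did not overlap: BCR-ABL1 was lowest, EV intermediate and C-MYC highest. The log2 fold change was -1.21 ± 0.20 (SE, edgeR adjusted p = 0.00629) with BCR-ABL1 and 0.69 ± 0.19 (SE, edgeR adjusted p = 0.0226) with C-MYC, the latter a 1.61-fold higher level. The difference between the oncogenes, tested directly, was -1.90 ± 0.20 (SE, edgeR adjusted p = 0.00132), and it was kept without any single library, while the rise with C-MYC was lost without EV replicate 1 or C-MYC replicate 2. Ctsa, a carboxypeptidase that also protects beta-galactosidase and sialidase in a complex, was lower with both and at 151 and 169 CPM with EV, 108 and 98.9 with BCR-ABL1 and 101 and 103 with C-MYC.

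Ctsd and Ctsb were not called and varied between replicates, most in EV and C-MYC. Ctsd, the aspartic protease cathepsin D, was at 344 and 601 CPM with EV, 207 and 272 with BCR-ABL1 and 361 and 628 with C-MYC. The replicate 2 library was higher in every condition, and the BCR-ABL1 value of -0.98 ± 0.32 (SE, edgeR adjusted p = 0.0755) did not pass the test. Ctsb, a cysteine protease, was at 585 and 861 CPM with EV, 425 and 456 with BCR-ABL1 and 457 and 702 with C-MYC, with -0.72 ± 0.23 (SE, edgeR adjusted p = 0.073) for BCR-ABL1. Ctsc, an activator of granule serine proteases, Ctsz, a carboxypeptidase, and Tpp1, a tripeptidyl peptidase, were not called, and their values against EV ranged from -0.41 to -0.05.

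Among the 10 glycosidases, 2 were lower with BCR-ABL1 (Hexa and Man2b1), while with C-MYC 3 were lower (Hexa, Man2b1 and Idua) and 2 were higher (Gaa and Gusb). With C-MYC these shares, 30% and 20%, lay near the 24.5% and 18.6% of all genes. With BCR-ABL1 the share called lower was 20%, against 12% of all genes. Hexa, the alpha subunit of beta-hexosaminidase, which degrades GM2 ganglioside, was at 39.9 and 61.6 CPM with EV, 13.8 and 16.4 with BCR-ABL1 and 19.1 and 31.7 with C-MYC. Every oncogene library lay below the EV libraries, with the BCR-ABL1 libraries lowest. The log2 fold change was -1.75 ± 0.29 (SE, edgeR adjusted p = 0.00673) with BCR-ABL1, a 3.36-fold lower level, and -1.0 ± 0.28 (SE, edgeR adjusted p = 0.0231) with C-MYC.

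Man2b1, the lysosomal alpha-mannosidase, was at 146 and 184 CPM with EV, 104 and 114 with BCR-ABL1 and 92.3 and 101 with C-MYC. Idua, which degrades dermatan and heparan sulfate, was at 20.7 and 19.02 CPM with EV, 16.9 and 16.9 with BCR-ABL1 and 11.4 and 11.99 with C-MYC, and only its C-MYC value passed the test against EV (edgeR adjusted p = 0.00587). The C-MYC libraries of both genes were the lowest.

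Gaa, the acid alpha-glucosidase that degrades glycogen, was at 14.6 and 17.4 CPM with EV, 14.5 and 16.9 with BCR-ABL1 and 25.5 and 26.5 with C-MYC. Its BCR-ABL1 and EV libraries overlapped, and both C-MYC libraries were above them, a rise of 0.70 ± 0.16 (SE, edgeR adjusted p = 0.0112) that was lost without either C-MYC library. Gusb, beta-glucuronidase, showed the same order, at 61.4 and 83.9 CPM with EV, 64.1 and 78.8 with BCR-ABL1 and 112 and 141 with C-MYC. Its log2 fold change was 0.80 ± 0.19 (SE, edgeR adjusted p = 0.0118) with C-MYC and -0.02 with BCR-ABL1. The glycosidase genes Gla, Glb1, Manba, Neu1 and Naglu were not called, with values from -0.55 to 0.28 against EV.

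Of the 5 sulfatases, Sgsh was lower with both oncogenes, Galns was lower with C-MYC and Arsb was higher with BCR-ABL1. Sgsh, which removes sulfate from heparan sulfate, was at 8.41 and 13.04 CPM with EV, 5.21 and 5.53 with BCR-ABL1 and 4.23 and 4.49 with C-MYC. EV replicate 2 was highest, and the oncogene libraries lay below both EV libraries. The log2 fold change was -0.999 ± 0.26 (SE, edgeR adjusted p = 0.0362) with BCR-ABL1 and -1.30 ± 0.26 (SE, edgeR adjusted p = 0.00597) with C-MYC, and the BCR-ABL1 call was kept without EV replicate 1 but lost when any other library was left out.

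Arsb, which removes sulfate from dermatan sulfate, was at 65.3 and 58.5 CPM with EV, 110.2 and 92.9 with BCR-ABL1 and 70.1 and 48 with C-MYC. The BCR-ABL1 libraries were the highest for this gene, at 0.72 ± 0.19 (SE, edgeR adjusted p = 0.039) against EV, whereas the C-MYC libraries lay on either side of EV. Long noncoding genes cover 39.9% of its annotated exon bases on the opposite strand, and whether the counting used strand is not given in the sources used here. Galns, a sulfatase of keratan sulfate, was at 48.2 and 41.1 CPM with EV, 42.2 and 39.4 with BCR-ABL1 and 28.04 and 26 with C-MYC, and its C-MYC libraries lay below all others. Ids and Arsa, for iduronate and cerebroside sulfate, were not called, with -0.66 and -0.57 for Arsa and 0.03 and -0.31 for Ids with BCR-ABL1 and C-MYC.

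No lipid hydrolase of the 4 was called with BCR-ABL1, and 2 were lower with C-MYC, against 12% and 24.5% of all genes called lower. Ppt1, which removes palmitate from proteins, was at 204 and 212 CPM with EV, 188 and 174 with BCR-ABL1 and 126 and 117 with C-MYC. Its C-MYC libraries were well below all others, at -0.78 ± 0.10 (SE, edgeR adjusted p = 0.00109). Smpd1, acid sphingomyelinase, was at 21.7 and 25.96 CPM with EV, 25.8 and 26.3 with BCR-ABL1 and 16.9 and 16.97 with C-MYC, and its C-MYC call (edgeR adjusted p = 0.0311) was lost without either BCR-ABL1 library, either C-MYC library or EV replicate 2. The acid ceramidase gene Asah1 and the acid lipase gene Lipa were not called. Lipa, at 61.5 and 99.4 CPM with EV, 64.1 and 74.3 with BCR-ABL1 and 68.4 and 102 with C-MYC, was another gene with the higher value in replicate 2 of every condition.

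All 4 genes of the last group, the activators, carriers and other soluble proteins, were lower with C-MYC, and 2 of them, Psap and Grn, were lower with BCR-ABL1. Of all genes, 24.5% and 12% were called lower. Grn, which encodes progranulin, a secreted and lysosomal regulator of hydrolase activity, was at 167 and 199.7 CPM with EV, 49.96 and 48.2 with BCR-ABL1 and 86.2 and 109.8 with C-MYC. The conditions did not overlap, with BCR-ABL1 lowest and C-MYC intermediate. The log2 fold change was -1.90 ± 0.15 (SE, edgeR adjusted p = 0.000591) with BCR-ABL1, a 3.73-fold lower level, and -0.90 ± 0.15 (SE, edgeR adjusted p = 0.00253) with C-MYC, and both calls were kept when any single library was left out.

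Psap, the precursor of the saposins that present sphingolipids to their hydrolases, was at 1701 and 2063 CPM with EV, 949 and 1053 with BCR-ABL1 and 902 and 1435 with C-MYC. All oncogene libraries were below EV, and C-MYC replicate 2 was nearer to EV than replicate 1. Its log2 fold change was -0.91 with BCR-ABL1 (edgeR adjusted p = 0.0219) and -0.69 with C-MYC (edgeR adjusted p = 0.029). Gm2a, which presents GM2 ganglioside to beta-hexosaminidase, was at 139 and 145 CPM with EV, 123 and 125 with BCR-ABL1 and 86.9 and 75.5 with C-MYC. Against EV it was -0.80 ± 0.11 (SE, edgeR adjusted p = 0.00134) with C-MYC and -0.19 ± 0.11 (SE, edgeR adjusted p = 0.282) with BCR-ABL1. Npc2, a soluble cholesterol carrier that hands its cargo to NPC1, was at 399 and 351 CPM with EV, 348 and 352 with BCR-ABL1 and 265 and 241 with C-MYC, and its C-MYC libraries lay below all others.

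**Figure D2:**
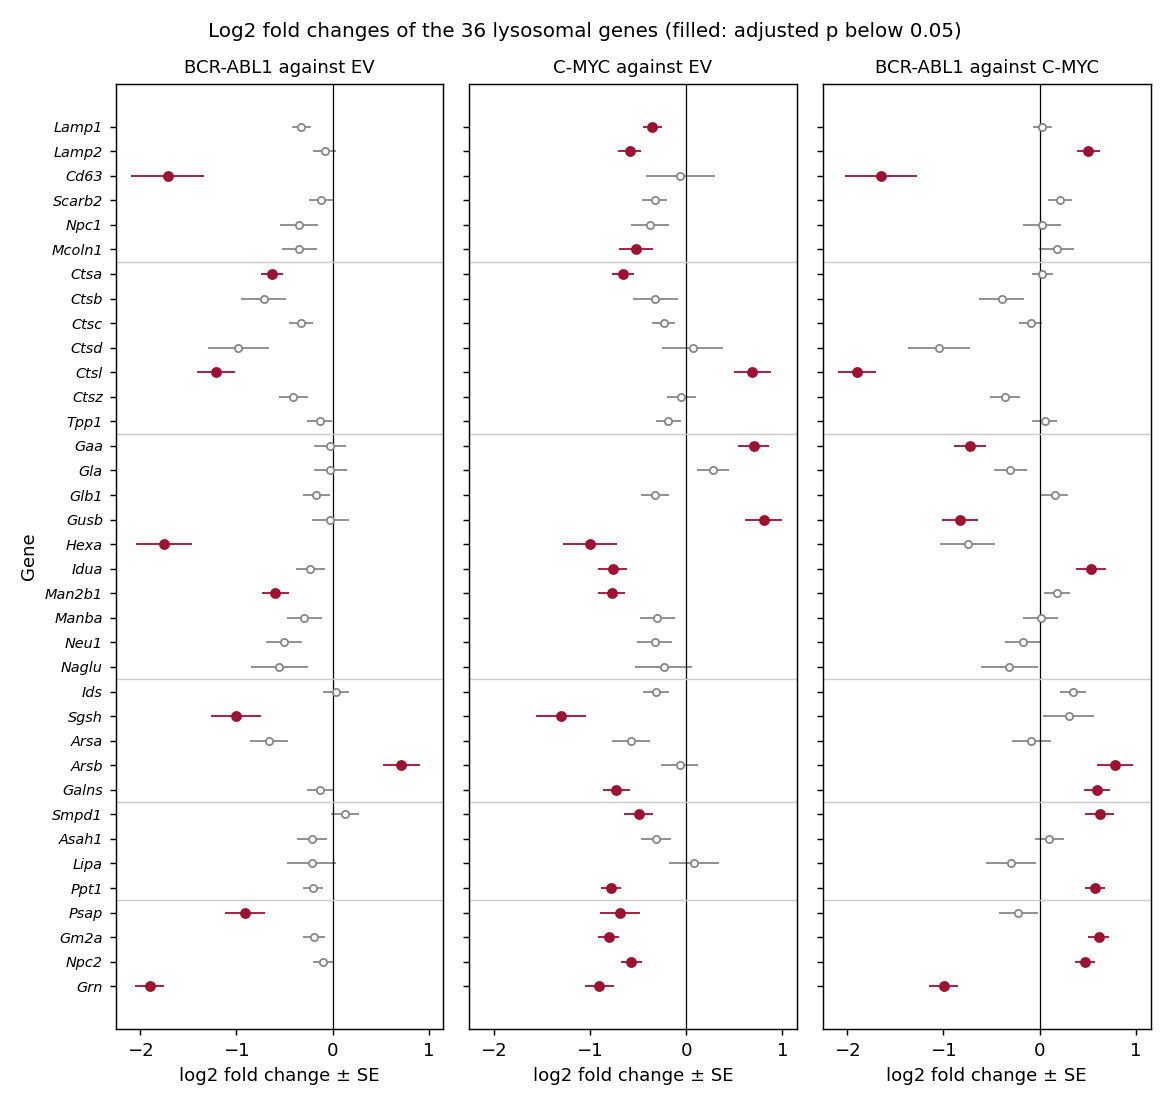
Log2 fold change of each of the 36 genes in the 3 comparisons, with bars of ± SE from edgeR over 2 libraries per condition. Filled points passed an adjusted p of 0.05, and gray lines separate the roles. With BCR-ABL1, Grn, Hexa and Cd63 lie farthest to the left, and Ctsl changes side between BCR-ABL1 and C-MYC.

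Compared directly, the oncogenes differed at 13 of the 36 genes. BCR-ABL1 was higher than C-MYC at Lamp2, Idua, Arsb, Galns, Smpd1, Ppt1, Gm2a and Npc2. The 5 largest of these were Arsb at 0.78 ± 0.19 (SE, edgeR adjusted p = 0.023), Smpd1 at 0.62 ± 0.15 (SE, edgeR adjusted p = 0.0225), Gm2a at 0.61 ± 0.11 (SE, edgeR adjusted p = 0.00854), Galns at 0.60 ± 0.14 (SE, edgeR adjusted p = 0.0199) and Ppt1 at 0.58 ± 0.10 (SE, edgeR adjusted p = 0.00778). All of these except Arsb were also called lower in C-MYC than in EV, a comparison with the same C-MYC libraries.

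BCR-ABL1 was lower than C-MYC at Ctsl, Cd63, Grn, Gusb and Gaa. After Ctsl, the values were -1.65 ± 0.38 (SE, edgeR adjusted p = 0.0189) for Cd63, -0.997 ± 0.15 (SE, edgeR adjusted p = 0.00443) for Grn, -0.83 ± 0.19 (SE, edgeR adjusted p = 0.0194) for Gusb and -0.73 ± 0.16 (SE, edgeR adjusted p = 0.0181) for Gaa. The other members lay between -1.05 for Ctsd and 0.35 for Ids.

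Leaving out libraries changed this comparison most. The 8 higher calls became 0 without BCR-ABL1 replicate 1 or C-MYC replicate 2, 1 without BCR-ABL1 replicate 2 and 3 without C-MYC replicate 1, and the 5 lower calls became 2, Ctsl and Grn, without BCR-ABL1 replicate 1, BCR-ABL1 replicate 2 or C-MYC replicate 2. By limma on log2(FPKM + 1), Cd63, Gaa and Gusb were no longer called lower, which left 2.

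Against EV, markers of other bone marrow cells were lower too, where 12% of all genes tested were called lower with BCR-ABL1 and 24.5% with C-MYC. The 16 macrophage markers summed to 967 and 1387 CPM with EV, 145 and 185 with BCR-ABL1 and 257 and 479 with C-MYC. The largest part of each sum was Lyz2, a gene of myeloid cells and not of macrophages alone. Of the 14 markers that were tested, 13 were lower with BCR-ABL1 (median log2 fold change -3.62) and 8 were lower with C-MYC (median -1.51). In BCR-ABL1 against C-MYC, 9 were lower and 0 higher (median -1.91). In that last comparison the 36 lysosomal genes had 8 higher, 5 lower and a median of 0.02. Csf1r, the receptor for the macrophage growth factor, was at 82.5 and 145 CPM with EV, 10.6 and 12.05 with BCR-ABL1 and 29.9 and 54.9 with C-MYC.

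Lyz2, lysozyme of myeloid cells, was at 496 and 690.4 CPM with EV, 97.4 and 123 with BCR-ABL1 and 132 and 226 with C-MYC, and Adgre1, which encodes F4/80, at 27.1 and 59.9 CPM with EV, 3.13 and 5.61 with BCR-ABL1 and 9.42 and 22.9 with C-MYC. C1qa, a complement subunit made by tissue macrophages, fell to 3.27 and 3.66 CPM with BCR-ABL1 and 4.46 and 6.38 with C-MYC. These markers were reduced but not absent with either oncogene, and of the whole list only Vsig4 had 0 counts in all 6 libraries. Cd68, a lysosomal membrane protein of macrophages, was at 34.8 and 61.03 CPM with EV, 13.8 and 15.6 with BCR-ABL1 and 37.8 and 49.04 with C-MYC. It was lower with BCR-ABL1 (-1.70 ± 0.27 SE, edgeR adjusted p = 0.00575), and its C-MYC and EV libraries overlapped.

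Neutrophil, mast cell and basophil, and T and NK cell markers were lower with both oncogenes for all that were tested, 11, 7 and 8 of them. The summed neutrophil markers were at 1145 and 375 CPM in EV and between 30.7 and 49.7 in the oncogene libraries, and those of mast cells and basophils at 145 and 119.9 in EV and between 2.74 and 7.14. The 7 stromal markers, of which 5 were tested, summed to 103 and 157 CPM in EV and to at most 6.02 elsewhere, with 4 lower with BCR-ABL1 and 5 lower with C-MYC. Dendritic cell markers were sparse, with 2 of the 4 tested lower with either oncogene, and the 1 erythroid marker tested was not called.

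The 13 B cell precursor markers summed to 9493 and 8488 CPM with EV, 8670.0 and 7786 with BCR-ABL1 and 7232 and 5735 with C-MYC. With BCR-ABL1, 3 of the 13 were lower (median -0.04), and with C-MYC 11 were lower (median -0.80). Of all genes tested, 12% and 24.5% were called lower. In BCR-ABL1 against C-MYC, 9 of the markers were higher and 0 lower (median 0.61), against 11.9% and 11.5% of all genes. Cd79a, which encodes a signaling chain of the B cell receptor, was at 1322 and 1209 CPM with EV, 1653 and 1424 with BCR-ABL1 and 812 and 603 with C-MYC. Pax5, the B lineage transcription factor, was at 136 and 209.8 CPM with EV, 149 and 130.1 with BCR-ABL1 and 105 and 91.6 with C-MYC and was called lower with C-MYC. Levels within the list varied. Rag1, a subunit of the V(D)J recombinase, was at 71.1 and 58.9 CPM with EV, 37.3 and 38.9 with BCR-ABL1 and 5.98 and 8.22 with C-MYC, and Il7r, the IL-7 receptor chain, at 184 and 131 CPM with EV, 46.6 and 42.8 with BCR-ABL1 and 50.8 and 52.4 with C-MYC, and both, named here after their values were seen, were lower with each oncogene. The summed level of the 36 lysosomal genes was 5404 and 6470.0 CPM with EV, 3855 and 4061 with BCR-ABL1 and 3802 and 5047 with C-MYC. The part of macrophages, of other non-B cells and of the B cell precursors in the lysosomal values was not tested.

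**Figure D3:**
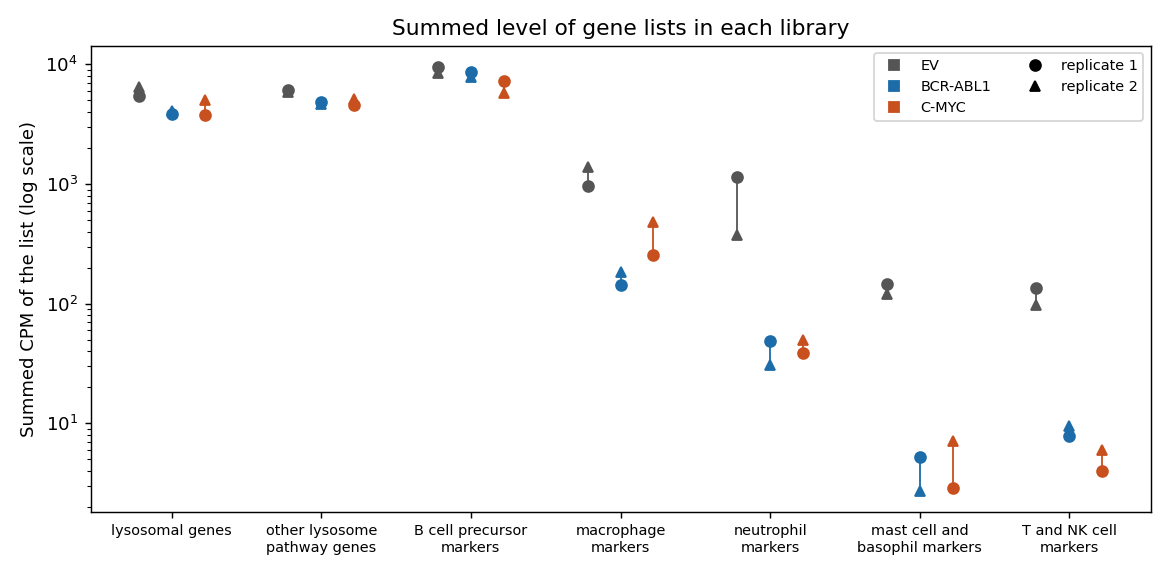
Summed CPM of each gene list on a log scale, with 1 point per library, colored by condition and shaped by replicate, and lines joining the 2 libraries of a condition. The lysosomal sum lies between 3802 and 6470.0 over all libraries. The macrophage marker sum, of which Lyz2 is the largest part, is 967 and 1387 in EV and 145 to 479 in the oncogene libraries.

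The 2 libraries of a condition also differed from each other at the lysosomal genes. On log2(CPM + 1), 27 of the 36 genes were higher in replicate 2 with EV, 24 with BCR-ABL1 and 29 with C-MYC, with median differences of 0.22, 0.05 and 0.11. The medians over all genes tested were 0.017, 0.001 and -0.004. Macrophage markers were higher in replicate 2 for 12, 12 and 14 of the 14 tested, with medians of 0.78, 0.30 and 0.86. With BCR-ABL1 many of these markers were at few CPM, where the added 1 makes a difference smaller. Fcgr1, at 0.19 and 0.415 CPM, entered with 0.25. Most B cell precursor markers were lower in replicate 2 of each condition. Summed neutrophil markers were lower in replicate 2 with EV (1145 and 375 CPM) and BCR-ABL1, and higher with C-MYC. Cd63 in C-MYC, with a difference of 1.17, had the widest gap of any of the 36. Ctsd, Lipa, Ctsb and Hexa were higher in replicate 2 of all 3 conditions, and so were many others of the 36, such as Ctsl, Gusb and Psap. Whether macrophage content set these differences was not tested.

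**Figure D4:**
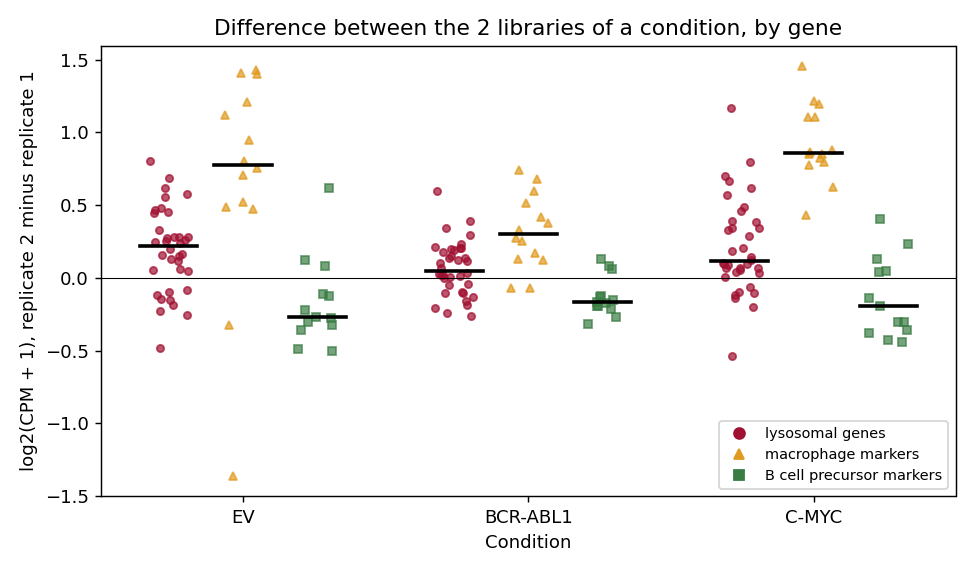
Difference on log2(CPM + 1) between replicate 2 and replicate 1 of each condition. Each point is a gene, colored and shaped by list, and black bars are medians. Medians of the lysosomal genes (0.22, 0.05 and 0.11) lie above 0 and below those of the macrophage markers (0.78, 0.30 and 0.86). Most B cell precursor markers lie below 0.

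Other genes of the pathway were examined from lists of 80, of which 79 were tested. Among 16 tested V-ATPase subunits, 2 were lower with BCR-ABL1, 4 were lower with C-MYC and 0 were higher with either. These shares, 12.5% and 25%, lay near the 12% and 24.5% of all genes called lower. Tcirg1, a membrane subunit of the pump, was at 212 and 172 CPM with EV, 129 and 125 with BCR-ABL1 and 104 and 118 with C-MYC, and Atp6ap1, an accessory subunit, at 137 and 138 CPM with EV, 103 and 100.2 with BCR-ABL1 and 103 and 97.4 with C-MYC. Both were lower with each oncogene. Atp6v1d, a subunit of the rotor, was -0.82 ± 0.12 (SE, edgeR adjusted p = 0.00178) with C-MYC, and Atp6v0d1 was -0.63 ± 0.12 (SE, edgeR adjusted p = 0.00485). These last genes were the 2 that were higher in BCR-ABL1 than in C-MYC, 12.5% of the subunits tested against 11.9% of all genes.

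Of 10 genes for mannose 6-phosphate tagging and sorting, 1 was higher and 1 lower with BCR-ABL1, and 2 were lower with C-MYC. The shares called lower, 10% and 20%, lay below those of all genes, 12% and 24.5%. Sort1, which encodes sortilin, a sorting receptor that binds prosaposin and progranulin, was at 10.7 and 17.97 CPM with EV, 2.7 and 4.78 with BCR-ABL1 and 11.7 and 22 with C-MYC. BCR-ABL1 libraries were the lowest, at -1.93 ± 0.42 (SE, edgeR adjusted p = 0.0178), while C-MYC and EV overlapped. Gga2, an adaptor for mannose 6-phosphate receptors, was highest in BCR-ABL1, at 0.76 ± 0.13 (SE, edgeR adjusted p = 0.00677). With C-MYC, Gnptg, a subunit of the enzyme that makes the tag, was -0.67 ± 0.16 (SE, edgeR adjusted p = 0.0131), and the adaptor gene Gga3 was -0.40 ± 0.13 (SE, edgeR adjusted p = 0.0363). Between the oncogenes, Sort1 and the tag-uncovering enzyme gene Nagpa were lower and Gga2 was higher in BCR-ABL1.

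The MiT/TFE factors and nutrient sensors of the lysosome made up 19 genes, with 1 higher and 3 lower with BCR-ABL1 and 1 higher and 4 lower with C-MYC. The shares called lower were 15.8% and 21.1%, against 12% and 24.5% of all genes. Tfeb was at 103 and 86.4 CPM with EV, 87.9 and 78.8 with BCR-ABL1 and 62.9 and 49.1 with C-MYC. It was lower with C-MYC (-0.76 ± 0.16 SE, edgeR adjusted p = 0.00692), and with BCR-ABL1 it was -0.19 ± 0.16 (SE, edgeR adjusted p = 0.469). Tfe3 was at 50.6 and 39.96 CPM with EV, 40.4 and 31.8 with BCR-ABL1 and 31.9 and 27.4 with C-MYC and was likewise called lower with C-MYC (edgeR adjusted p = 0.0279), without a difference between the oncogenes that passed the test (edgeR adjusted p = 0.295). Mitf was scarce, at 1.87 and 5.02 CPM with EV, 0.616 and 1.29 with BCR-ABL1 and 1.2 and 1.98 with C-MYC, and was not called. Their relative Tfec, known from myeloid cells, was at 2.48 and 4.35 CPM with EV, 0.284 and 0.54 with BCR-ABL1 and 1.98 and 3.82 with C-MYC, lower with BCR-ABL1 (-3.02 ± 0.53 SE, edgeR adjusted p = 0.00879).

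Among the nutrient sensors, Rragd, a Rag GTPase subunit that recruits mTORC1, was at 34.5 and 30.8 CPM with EV, 81.2 and 68.6 with BCR-ABL1 and 39.7 and 43.3 with C-MYC and was higher with BCR-ABL1 (1.198 ± 0.14 SE, edgeR adjusted p = 0.00176). Slc38a9, the arginine sensor of the lysosomal membrane, was lower with both, at -0.97 with BCR-ABL1 and -1.52 with C-MYC, and Fnip2, a partner of folliculin, was lower with BCR-ABL1 (-1.30). With C-MYC, the Ragulator gene Lamtor4 was -0.85 ± 0.14 (SE, edgeR adjusted p = 0.00228) and the Rag GTPase gene Rraga was 0.41 ± 0.11 (SE, edgeR adjusted p = 0.0185). Between the oncogenes, Lamtor4, Rragd and Tfeb were higher and Tfec and Fnip2 lower in BCR-ABL1.

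A further 34 lysosomal hydrolases and membrane proteins had 12 genes lower and 0 higher with BCR-ABL1, and 16 lower and 3 higher with C-MYC. The shares called lower were 35.3% and 47.1%, against 12% and 24.5% of all genes. Ctsh, a cysteine protease, was at 27.3 and 34.5 CPM with EV, 2.18 and 3.86 with BCR-ABL1 and 6.02 and 14.2 with C-MYC. It was lower with both, at -3.34 ± 0.44 (SE, edgeR adjusted p = 0.00267) and -1.61 ± 0.40 (SE, edgeR adjusted p = 0.0135), and so was Laptm5, a lysosomal protein of hematopoietic cells, at 1008 and 662 CPM with EV, 448 and 335 with BCR-ABL1 and 257 and 206 with C-MYC. Ctsf was lower with BCR-ABL1 (-2.23 ± 0.60 SE, edgeR adjusted p = 0.0403) at levels of at most 1.62 CPM, and Ctso was lower with C-MYC (-1.40 ± 0.17 SE, edgeR adjusted p = 0.000816).

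The largest rise in these lists was that of Ctsk with C-MYC. Ctsk encodes cathepsin K, the collagen-degrading protease of osteoclasts, and was at 0.795 and 2.47 CPM with EV, 0.427 and 1.12 with BCR-ABL1 and 22.1 and 32.2 with C-MYC. C-MYC libraries lay far above the rest, at 4.03 ± 0.51 (SE, edgeR adjusted p = 0.000909) against EV, a 16.4-fold higher level. Gpnmb, a glycoprotein of macrophages and osteoclasts, was at 238 and 423 CPM with EV, 168 and 251 with BCR-ABL1 and 509 and 847 with C-MYC, with 1.04 ± 0.33 (SE, edgeR adjusted p = 0.0367), and the hyaluronidase gene Hyal2 was also higher with C-MYC (0.81 ± 0.22 SE, edgeR adjusted p = 0.0194). Between the oncogenes, BCR-ABL1 was lower at 10 of the 34, with Ctsk, Ctsf and Ctsh farthest apart, and higher at 5, led by Ctso, Laptm5 and Ostm1. These shares were 29.4% and 14.7%, against 11.5% and 11.9% of all genes, so the share called higher lay near that of all genes.

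To compare genes with each other, levels per length were taken as the deposited FPKM values. Psap was highest in every condition, at 766 ± 117 FPKM with EV, 387 ± 30.2 with BCR-ABL1 and 438 ± 152 with C-MYC (mean ± SD, n = 2), and it made up 28.4%, 23.0% and 23.8% of the summed FPKM of the 36 genes. In EV it was followed by Lamp1 at 324 ± 9.57, Ctsb at 298 ± 85.0, Npc2 at 249 ± 18.4, Ctsd at 224 ± 90.2 and Grn at 203 ± 28.4 FPKM. From Lamp1 to Grn, the SD of each gene reached that of its neighbor in this order, so neighbors did not differ beyond their spread. Grn was at 51.9 ± 0.787 FPKM with BCR-ABL1 and 101 ± 20.1 with C-MYC. At the other end in EV were Gusb at 3.92 ± 0.944, Gaa at 3.23 ± 0.455 and Sgsh at 3.15 ± 1.03 FPKM, again within each other's spread.

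The order depends on the gene lengths used. When CPM divided by annotated exon length was used instead of FPKM, 7 of the 10 highest genes in EV were shared, and the rank correlation across the 36 genes, which share libraries and reads, was 0.815 (Spearman). Gusb ranked 34 by FPKM and 16 by CPM per kilobase, and Arsb ranked 8 and 21.

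In the promoters, CACGTG was found in 11 of the 32 genes with an entry (34.4%), compared with 8.09% of 27025 genes and 7.15% of 32851 promoters of the same length. The extended motif GTCACGTG, which contains CACGTG and belongs to the element bound by TFEB, was found in 9 of 32 (28.1%), compared with 2.55% of all genes. The 11 genes were Lamp1, Mcoln1, Ctsa, Ctsd, Ctsl, Gaa, Gla, Glb1, Naglu, Sgsh and Arsa. Lamp1 held 4 copies between 61 and 15 bases before the start, and in the window printed above the copy at 28 bases is the 1 with the extension. The single copies of Glb1, 48 bases before the start, and Gaa, 140 bases before it, were with and without the extension.

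Genes with and without the motif were then set side by side. With C-MYC, 4 of the 11 genes with CACGTG were lower (Lamp1, Mcoln1, Ctsa and Sgsh) and 2 were higher (Ctsl and Gaa), with a median log2 fold change of -0.32. Of the 21 genes without it, 10 were lower and 1 was higher, with a median of -0.33. With BCR-ABL1, 3 of 11 and 5 of 21 were lower and 0 and 1 were higher, with medians of -0.55 and -0.22. In BCR-ABL1 against C-MYC, 0 of 11 and 7 of 21 were higher and 2 and 3 were lower, with medians of -0.09 and 0.05. Of all genes tested, 24.5% were lower and 18.6% higher with C-MYC, and 12% lower and 5.08% higher with BCR-ABL1. Between the oncogenes, 11.9% of all genes were higher and 11.5% lower in BCR-ABL1. Both genes that rose with C-MYC and have the motif, Ctsl and Gaa, carried it without the extension. Whether a factor binds these motifs in the cells was not measured in the files analysed here.

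**Figure D5:**
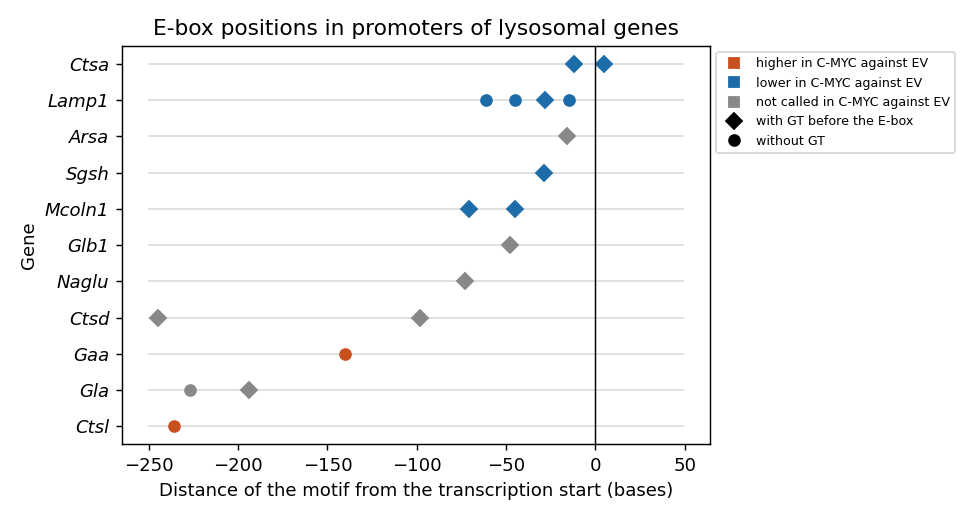
Position of each CACGTG motif in the promoters of the 11 lysosomal genes that hold it, as distance from the annotated transcription start in bases. Diamonds mark motifs with the GT extension and circles those without it, and color gives the call for C-MYC against EV. All motifs but 1 of Ctsa, 5 bases after the start, lie upstream, from 12 to 245 bases before it.

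Several genes share exon bases with a neighbor in the GENCODE annotation of GRCm38. On the opposite strand these include Ctsl, at chromosome 13, 64359337 to 64370890, with an antisense gene over 26.8% of its exon bases. Sgsh, at chromosome 11, 119343425 to 119355536, shares 21.6% with Card14. Ctsa, which was called lower with both oncogenes, shares 17.4% with Neurl2 and Pltp, Arsa shares 18.8% with an antisense gene and Ctsb shares 12.8% with Fdft1. On the same strand, Ctsd shares 34.4% with a protein-coding gene model, Gm49369, Ctsl shares 6.09% with a processed pseudogene, Gm49230, and Glb1 shares 5.49% with Tmppe. Grn, at chromosome 11, 102430315 to 102437048, shares 1.96% with Fam171a2 on the opposite strand. Hexa, at chromosome 9, 59539540 to 59565109, shares 12.8% with Tmem202, also on the opposite strand. For Cd63, at chromosome 10, 128900989 to 128912822, and Psap, at chromosome 10, 60277627 to 60302597, none of the exon bases were shared. Counts of the overlapping genes are uncertain to that extent.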

How the data were processed

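RNA-seq of 3 conditions with 2 libraries each was analysed, with groups and replicates as the labels name them. The ChIP-seq samples of the series were not analysed here. The authors aligned poly(A) RNA reads with STAR v2.5.0 against GRCm38/mm10, using UCSC known genes. The deposited counts are not normalized and give a whole number for each gene symbol. The counting program and its strand setting are not given in the sources used here. FPKM values (fragments scaled to transcript length and library size) were calculated by the authors with StringTie v1.3.0.

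From the counts, genes were kept by filterByExpr, scaled by TMM and tested with edgeR 4.0.16 (quasi-likelihood test, R 4.3.3), with all 6 libraries in 1 model without covariate and Benjamini-Hochberg adjustment over 12786 genes at 0.05. SE values were obtained by dividing the size of the log2 fold change by the square root of F. The labels and methods speak of duplicate experiments without naming animals, so p-values measure the spread between these samples only. Totals were 20687092 to 24095955 counts and the common biological coefficient of variation was 0.151, to which counting error adds for genes at few counts, such as Ctsf and Tfec. The steps were tested on simulated data. Alternatives were DESeq2 1.42.0, limma 3.58.1 on FPKM (pseudocounts 1 and 0.1, mean FPKM of at least 1), size factors, no filter, 4 libraries, a replicate block and leaving out each library. Promoters and motifs were read with Python 3.11.15, and positions and exon overlaps with GENCODE M21.

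The 36 genes and all other lists were chosen with earlier results of these data known. Every listed gene was named, called genes with their value in every library, the 5 largest calls per direction and comparison with SE and adjusted p, and up to 3 called genes per direction from each other pathway list. Tfeb, Tfe3, Mitf, 5 macrophage and 3 B cell markers, Myc and Trp53bp1 were to be named in any case, of which 1 B cell marker is not reported here. Galns, Ctsb, Asah1 and Npc1 had no promoter entry.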

Additional observations from a re-analysis of the deposited data

How the results depend on the processing

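No call on a single lysosomal gene changed direction under any alternative, but some were lost. The balance of higher and lower calls between the oncogenes did change when single libraries were left out. Of the 40 calls on the lysosomal genes over the 3 comparisons, 39 kept their direction and threshold with DESeq2, 39 with its size factors in edgeR, 38 without the filter on low counts, 35 with the 4 libraries compared and 30 with limma on FPKM at either pseudocount. With limma on log2(FPKM + 1), the lysosomal genes called higher and lower with BCR-ABL1 were 0 and 5 (1 and 8 in edgeR) and all genes 248 and 807, lysosomal genes called higher with C-MYC were 1 (3), and in BCR-ABL1 against C-MYC 2 lysosomal genes (5) and 876 of all genes (1468) were lower. With the 4 libraries compared, all genes called higher with BCR-ABL1 were 402 (650) and those lower in BCR-ABL1 than in C-MYC 2271. The cause was not tested.

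Leaving out each library in turn left a condition with 1 library, which was then assumed to vary like the others. Lysosomal genes called higher and lower ranged from 0 to 1 and from 1 to 11 with BCR-ABL1, from 0 to 3 and from 9 to 18 with C-MYC, and from 0 to 8 and from 2 to 7 between the oncogenes. All genes called higher and lower ranged from 118 to 1000 and from 547 to 1799, from 1431 to 2701 and from 1898 to 3376, and from 442 to 2284 and from 176 to 2235. Of the 40 calls, 38 were kept without EV replicate 1, 34 without EV replicate 2, 18 and 21 without BCR-ABL1 replicates 1 and 2, and 26 and 22 without C-MYC replicates 1 and 2.

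Conditions share replicate numbers, but only 2 per comparison, and the labels do not say that a number marks a batch. Deviations from the condition means of same-numbered libraries correlated across 12786 genes at 0.36 (EV and BCR-ABL1), 0.31 (EV and C-MYC) and 0.31 (BCR-ABL1 and C-MYC), and across the 36 lysosomal genes at 0.68, 0.69 and 0.66, which is a hint from the data and not the design. With the replicate number as a block, all 40 calls were kept. Lysosomal genes called lower were then 16 with BCR-ABL1 and 8 in BCR-ABL1 against C-MYC. Of all genes, 2003 were lower and 1221 higher with BCR-ABL1 (1530 and 650 without the block). In BCR-ABL1 against C-MYC, 2110 of all genes were lower (1468 without the block).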
